A study of Mus musculus with 6 samples.

Results

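The regions described here are peaks of the transcription factor Grhl3 that were called in only 1 of 2 replicates of embryonic mouse skin and were met again in only 1 of 2 injuries of adult epidermis. Grhl3 binding had been mapped by chromatin immunoprecipitation and sequencing (ChIP-seq) with a custom antibody in whole back skin of embryos at day E16.5 (2 replicates), in epidermis of adults, once 4 days into a depilation experiment (1 library) and once in an imiquimod experiment (1 library). Each library has its own list of peaks, and the 2 input libraries without antibody were not analysed here. The labels name no strain, genotype, sex or adult age, and whether separate animals stand behind the E16.5 replicates is not given in them. The embryonic samples hold dermis and epidermis, and the adult samples hold epidermis freed with dispase, so tissue, age and injury change together and cannot be told apart.

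Members were chosen by overlap of deposited peak positions on build mm9. An autosomal peak of an E16.5 replicate entered when it shared no base with any peak of the other replicate and shared at least 1 bp with a peak of either the depilation or the imiquimod list, but not both. This gave 1021 peaks of the 20911 autosomal and 21304 total peaks in the E16.5 lists. Replicate 1 contributed 822 of them and replicate 2 contributed 199. All overlaps below that restate this choice are given as descriptions without a test. With 1 library for each injury, and lists rather than reads, the injuries themselves cannot be tested either.

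Grainyhead-like factors such as Grhl3 bind DNA in surface epithelia and act in the closure and repair of the skin barrier. Grhl3 is needed for the barrier that forms late in gestation, when the outer layers of the epidermis cornify. Depilation pulls out the hair shafts and starts a new hair cycle. Imiquimod is a drug that stimulates Toll-like receptors and produces a psoriasis-like inflammation of mouse skin. A peak is a stretch of genome where immunoprecipitated fragments pile up above the level that the peak caller takes as background.

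Of the 7731 autosomal peaks that only replicate 1 held, 420 lay on a depilation peak alone and 402 on an imiquimod peak alone. Together these 822 were 10.6% of the single-replicate peaks (exact 95% binomial interval 9.95 to 11.3), whereas 18.4% of all autosomal replicate 1 peaks were found in exactly one injury, 9.51% in depilation alone and 8.88% in imiquimod alone. Of the 5547 autosomal peaks that only replicate 2 held, 120 lay on a depilation peak alone and 79 on an imiquimod peak alone. These 199 were 3.59% of the single-replicate peaks (3.11 to 4.11), whereas all autosomal replicate 2 peaks gave 16.4%, 8.38% and 8.04% in the same order. The list-wide shares include the peaks that recur between replicates and that the rule leaves out, of which 34.6% in replicate 1 and 34.5% in replicate 2 were found in exactly one injury. A further 354 single-replicate peaks of replicate 1 and 40 of replicate 2 were found in both injuries, and 6555 and 5308 were found in neither.

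The split between the injuries was nearly even in replicate 1, and the higher depilation share of replicate 2 rested in part on a single place. Depilation accounted for 51.1% of the replicate 1 members (exact 95% interval 47.6 to 54.6) and for 60.3% of the replicate 2 members (53.1 to 67.2). Among peaks that recurred between the replicates and were found in a single injury, the depilation shares were 52.1% (49.3 to 54.9, 1280 peaks of replicate 1) and 49.7% (47.0 to 52.4, 1357 peaks of replicate 2). Of the 120 depilation members of replicate 2, 17 lay within a single 1 Mb window of chromosome 9 described below. Without it the share was 56.6% of 182 members (49.1 to 63.9), an interval that includes an even split. The adult lists differ in length, with 4820 peaks for depilation and 7974 for imiquimod. With the imiquimod list shortened to the best scoring peaks, as many as depilation has, the depilation shares were 58.9% and 68.4%. With only the better scoring 50% of every list they were 44.35% (40.6 to 48.1) and 52.73% (44.8 to 60.5). The depilation shares were thus higher when only the imiquimod list was shortened and lower when every list was. In replicate 1 the interval for the better scoring 50% lay below an even split, whereas the full lists gave a nearly even one. In both replicates that interval overlapped the interval of the full lists. Keeping 50% of each list also redraws which peaks count as single.

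In replicate 1 the share of peaks met in a single injury was higher at each step of the peak score from the second decile on, and in replicate 2 it differed little over the lower 7 deciles. The score is the one the peak caller gave in the deposited lists, and it was ranked here in deciles of each replicate's single-replicate peaks. In replicate 1, 18 of 773 peaks in the lowest decile were members, or 2.33% (1.39 to 3.66), against 263 of 773 in the highest, or 34.0% (30.7 to 37.5). In replicate 2 the corresponding counts were 14 of 554, or 2.53% (1.39 to 4.20), and 38 of 555, or 6.85% (4.89 to 9.28). The lowest deciles of the replicates therefore had overlapping intervals, and the highest deciles lay far apart. Both injuries followed the score in replicate 1, with 5 depilation and 13 imiquimod members in the lowest decile and 140 and 123 in the highest.

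**Figure D1:**
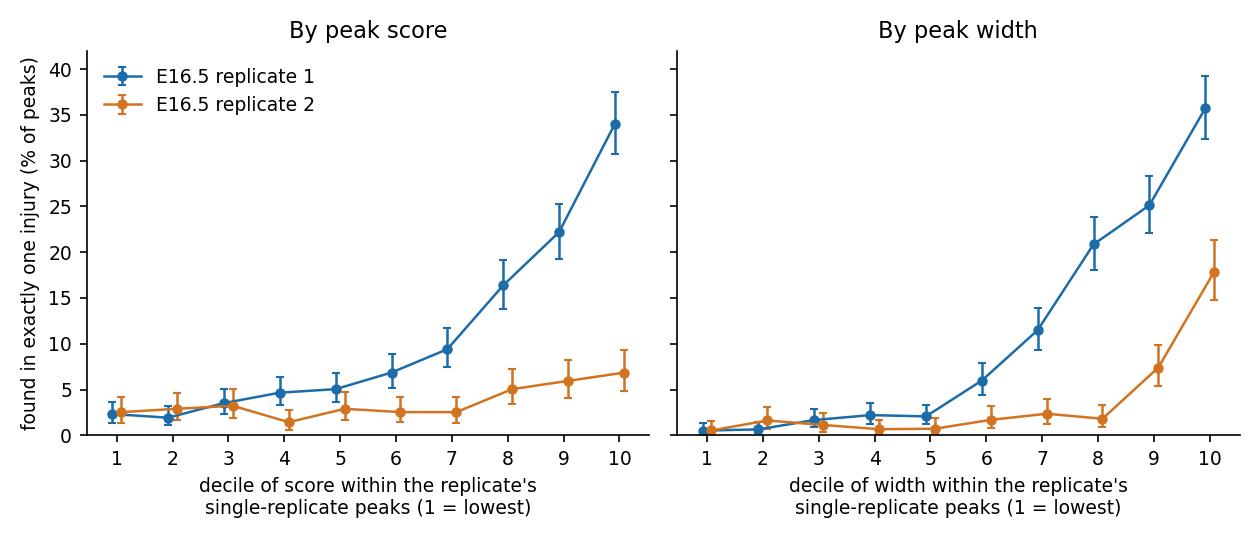
Share of single-replicate peaks found in exactly one injury (y axis, percent) by decile of peak score (left) and of peak width (right) within each E16.5 replicate, with exact 95% binomial intervals. Replicate 1 climbs over the upper deciles of both measures, to 34.0% by score and 35.7% by width, and replicate 2 climbs mainly in the 2 widest deciles, to 17.9%.

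Width separated the members more sharply than score. In replicate 1, 4 of the 776 narrowest single-replicate peaks (120 to 217 bp) were members, or 0.515%, and 276 of the 773 widest (725 to 3936 bp) were, or 35.7% (32.3 to 39.2). In replicate 2, 3 of the 561 narrowest (74 to 116 bp) were members, or 0.535%, and 100 of the 560 widest (292 to 808 bp) were, or 17.9% (14.8 to 21.3). The widest decile thus held 100 of the 199 replicate 2 members. A wide peak has more bases to share with another list, so width is tied to the rule, and these shares carry no test.

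Replicate 1 members had a median width of 619.5 bp (quartiles 486 and 796) and replicate 2 members a median of 292 bp (223 and 378). For comparison, peaks found in neither injury were weighted to the members' counts in each score decile of the same replicate. So weighted, they had a median width of 476 bp in replicate 1 and 185 bp in replicate 2. Members were therefore 1.30 and 1.58 times as wide as peaks of like score that no injury held. The match left the scores level, at 89.22 for members and 88.9 for the weighted peaks in replicate 1, and at 66.45 and 66.8 in replicate 2. The weighting was also run with width deciles in place of score deciles. The members' median score was then 89.22 against 79.05 for the peaks in neither list in replicate 1, or 1.13 times. In replicate 2 it was 66.45 against 63.04, or 1.05 times. No list holds a score under 50 and the scale of the score is not stated, so these ratios cannot be set against the width ratios. Peaks in both injuries were wider still, with medians of 735 bp and 424.5 bp.

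**Figure D2:**
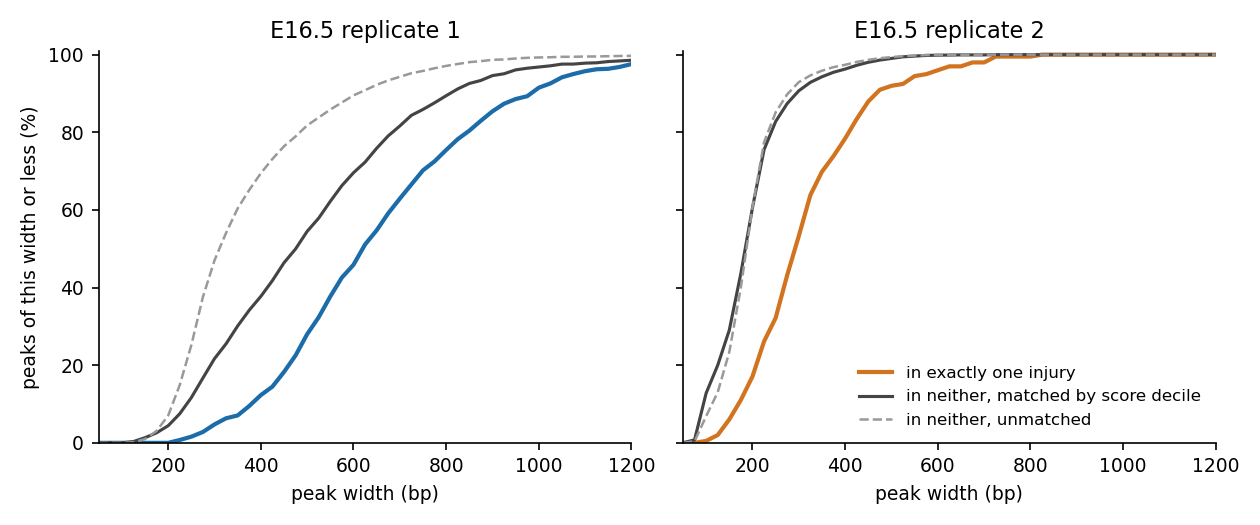
Cumulative share of peaks (y axis, percent) up to a given width (x axis, bp, drawn to 1200) for members, for peaks in neither injury weighted to the members' score deciles, and for the same peaks unweighted. The members' curve lies right of both others in each replicate, with medians of 619.5 against 476 bp in replicate 1 and 292 against 185 bp in replicate 2.

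Within bands of equal width the order of the replicates depended on the band. Replicate 1 peaks were the wider ones, with a median of 445 bp over the whole list against 232 bp in replicate 2. Among single-replicate peaks of 250 to 349 bp, 44 of 2352 in replicate 1 were members, or 1.87% (1.36 to 2.50), against 74 of 660 in replicate 2, or 11.2% (8.91 to 13.9). Among those of 350 to 449 bp the shares were 7.92% (6.44 to 9.62) of 1174 peaks and 18.3% (13.2 to 24.4) of 202. In these 2 bands replicate 2 was ahead, with intervals that did not overlap. At 150 to 249 bp the shares were 0.820% (0.437 to 1.40) and 1.55% (1.16 to 2.03), and at 450 to 599 bp they were 19.7% (17.4 to 22.1) and 17.0% (10.05 to 26.2). In those outer bands the intervals overlapped, and replicate 1 had the higher share in the widest. When every peak of every list was replaced by the 200 bp around its centre, which also redraws which peaks count as single, 932 of 8158 replicate 1 peaks (11.4%) and 381 of 6166 replicate 2 peaks (6.18%) met the rule, so replicate 1 stayed ahead in that setting. The bands were chosen after the widths had been seen.

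**Figure D3:**
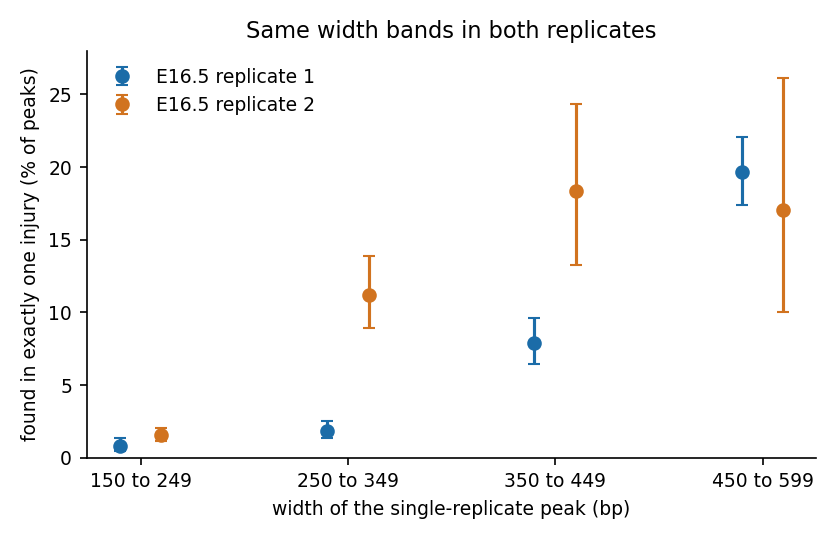
Share of single-replicate peaks found in exactly one injury (y axis, percent) in 4 bands of peak width (x axis, bp), with exact 95% binomial intervals. Replicate 2 lies above replicate 1 from 250 to 449 bp, at 11.2% against 1.87% and 18.3% against 7.92%, and the intervals meet in the bands outside.

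By their medians, the adult peaks that met members ranked above adult peaks that no embryonic replicate held and below those on recurring embryonic peaks. Percentiles here are ranks of the score within an adult list, from 0 to 100. The 436 depilation peaks on replicate 1 members alone had a median percentile of 57.8 (quartiles 36.3 and 76.8), and the 121 on replicate 2 members alone had a median of 63.6 (35.1 and 88.7). The 121 include those on the 17 members of the chromosome 9 window described below. The median depilation score was 304.5 for these 17 members and 62.88 for the other 103 depilation members of replicate 2. A score of 62.88 stands at percentile 55.4 of the depilation list. The 1594 depilation peaks on recurring E16.5 peaks stood at 69.3 (41.6 and 85.6), and the 2173 on no E16.5 peak at 33.8 (16.6 and 54.4). In the imiquimod list the members also stood between these groups. Its 404 peaks on replicate 1 members stood at 72.6 (46.4 and 86.0), its 77 on replicate 2 members at 61.8 (39.8 and 79.8), its 1436 on recurring peaks at 77.6 (58.0 and 90.2) and its 5614 on no E16.5 peak at 39.8 (19.4 and 62.7). The quartile ranges of members overlapped those of recurring peaks widely in both lists, and also those of the peaks on no E16.5 peak. The recurring group also holds sites found in both injuries, which the rule keeps out of the members. Adult peaks on single-replicate peaks found in both injuries had medians of 71.6 (424 depilation peaks) and 76.3 (412 imiquimod peaks). These lay close to the medians on recurring peaks and above those on members. Beyond these, 1 depilation peak and 6 imiquimod peaks touched a member and a recurring peak at once.

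**Figure D4:**
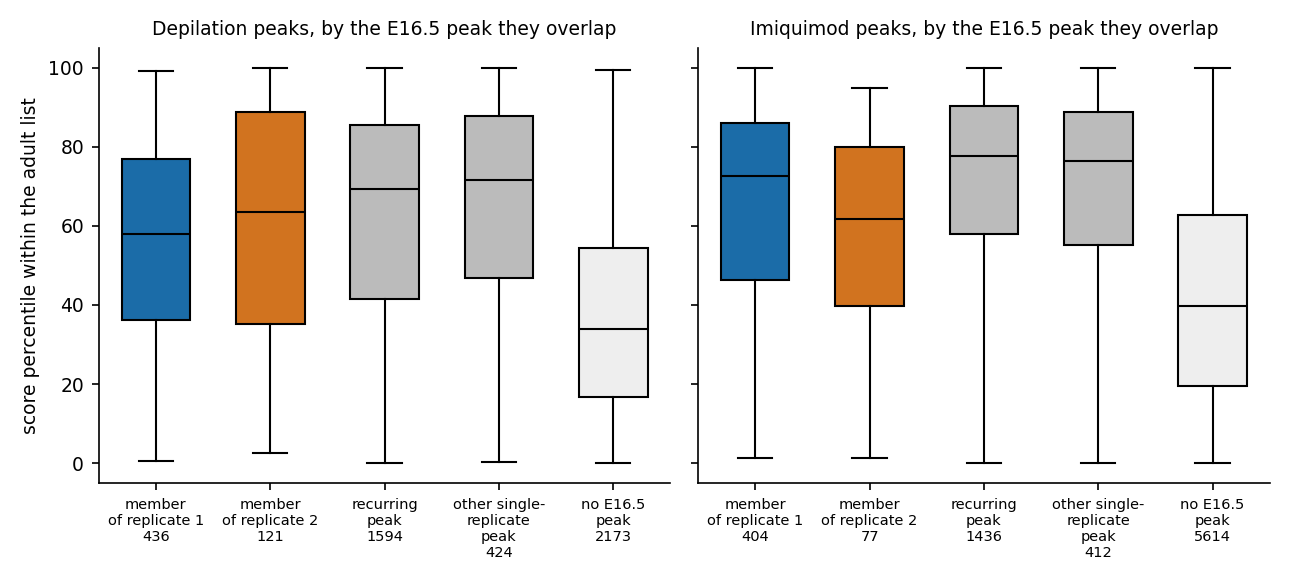
Score percentile (y axis) of depilation peaks (left) and imiquimod peaks (right), grouped by the E16.5 peak they overlap, where "member" is a single-replicate peak found in that injury alone. An "other single-replicate peak" is one found in both injuries. Boxes span the quartiles, lines inside are medians, whiskers reach the lowest and highest value, and the number of peaks stands under each name. The members' medians lie above those of the peaks on no E16.5 peak, 33.8 and 39.8, and the boxes overlap. The depilation box for replicate 2 members includes the high-scoring peaks of the chromosome 9 window described below.

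Tags and fold enrichment, which the deposited imiquimod list gives for each peak, did not move together. Tags are the sequence reads counted in a peak, and fold enrichment is their excess over the caller's background. The imiquimod peaks on replicate 1 members held a median of 40 tags (quartiles 32 and 52) and those on replicate 2 members 36 (29 and 47), against 46 (35.8 and 61) on recurring peaks and 26 (21 and 33) on no E16.5 peak. The fold enrichments were 6.50, 6.31, 6.44 and 6.73 in the same order, so the peaks that no embryonic replicate held had the fewest tags and the highest median fold. Their widths differed too, with medians of 338, 320, 376 and 243 bp. The false discovery rate of the caller, in percent, had medians of 4.25, 4.45, 4.19 and 5.94.

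The centres of members and their adult peaks lay apart by medians well under the members' median widths. The rule asks for a shared base, so the widths of both peaks limit this distance. The same holds for the counts of adult peaks wholly inside a member. Neither was drawn up for other peaks, so these values describe the members alone. In replicate 1 the centres lay a median of 75 bp apart for depilation and 68.75 bp for imiquimod, and in replicate 2 a median of 35 bp and 46.5 bp. The 35 bp includes the 17 members of the chromosome 9 window described below. Of those 17, 14 had both edges within 10 bp of their depilation peak, against 3 of the other 103. The adult peak lay wholly within the embryonic one for 387 of 420 depilation members and 304 of 402 imiquimod members of replicate 1. In replicate 2 this held for 60 of 120 and 20 of 79. The imiquimod summit, the position of highest signal in a peak, fell inside 393 of 402 replicate 1 members and 68 of 79 replicate 2 members. A member met more than 1 peak of its adult list in 16 and 7 cases of replicate 1 (depilation and imiquimod) and in 3 and 0 cases of replicate 2.

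The score in the embryo was at most weakly related to the score in the injured skin. Across replicate 1 members Spearman's rho between the member's score and that of its best adult peak was 0.22 for depilation (420 members) and 0.10 for imiquimod (402). Across replicate 2 members it was 0.14 (120) and -0.04 (79). Recurring peaks found in the same single injury gave 0.19, 0.12, 0.17 and 0.09 in the same order. These values describe peaks that share 2 libraries, and peaks are not replicates.

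A minority of members had a peak of the other replicate close by, although by the rule never overlapping. Of replicate 1 members, 65 of 822 had a replicate 2 peak within 1000 bp, or 7.91% (6.16 to 9.97), against 5.20% of the score-matched peaks in neither injury. Of replicate 2 members, 22 of 199 had a replicate 1 peak within 1000 bp, or 11.1% (7.06 to 16.3), against 4.23% of the matched peaks. Within 100 bp the counts were 16 and 8 members, or 1.95% (1.12 to 3.14) and 4.02% (1.75 to 7.77), against 0.823% and 1.04%. The members' shares were thus the higher ones at both distances, and most members of either replicate had no such neighbour. The difference was not tested. No adult peak joined a replicate 1 member to a replicate 2 member.

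Few members had a peak of the opposite injury within 1000 bp, and by the rule none overlapped one. No such distances were drawn up for other peaks, so these values describe the members alone and do not set them apart. For replicate 1, 20 of 420 depilation members had an imiquimod peak within 1000 bp, or 4.76% (2.93 to 7.26), and 22 of 402 imiquimod members had a depilation peak that near, or 5.47% (3.46 to 8.17). The median gap to the opposite list was 96034 bp for the depilation members and 136237.5 bp for the imiquimod members, whose opposite list is the shorter. For replicate 2 the counts within 1000 bp were 14 of 120 and 4 of 79. The count for depilation rests in part on 1 place, since outside the chromosome 9 window 7 of 103 depilation members had an imiquimod peak within 1000 bp.

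At the edge of the rule, 5 replicate 1 members and 4 replicate 2 members shared under 50 bp with their adult peak. The smallest overlap was 1 bp, between the replicate 2 peak at chr17:78599550-78599823 (score 76.36) and a depilation peak that starts at 78599823. Just outside, the replicate 1 peak at chr2:174153889-174154280 (score 62.22) lay 1 bp from an imiquimod peak and the one at chr1:38186843-38187205 (81.79) lay 3 bp from a depilation peak. Peaks in neither injury that came within 100 bp of a depilation peak numbered 8 in replicate 1 and 11 in replicate 2, and those that near to an imiquimod peak numbered 17 and 11. On the other side of the rule, 7 replicate 1 peaks and 4 replicate 2 peaks of a single injury were left out for an overlap of under 50 bp with the other replicate.

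Members were spread over all 19 autosomes and over 696 windows of 1 Mb, of which 479 held a single member. Chromosome 2 held the most (89) and chromosome 18 the fewest (28). In replicate 1 the members' share of single-replicate peaks ran from 7.69% on chromosome 3 to 15.3% on chromosome 17. In replicate 2 it ran from 1.84% on chromosomes 10 and 13 to 7.77% on chromosome 9.

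The balance of injuries in replicate 1 differed from chromosome to chromosome. Chromosome 18 had 17 depilation and 5 imiquimod members and chromosome 14 had 22 and 8. Chromosome 1 had 16 and 37, chromosome 19 had 8 and 19, and chromosome 13 had 8 and 16. Recurring replicate 1 peaks found in a single injury numbered 25 and 20 on chromosome 18, 21 and 19 on chromosome 14, 30 and 37 on chromosome 1, 22 and 21 on chromosome 19 and 27 and 35 on chromosome 13. These 5 chromosomes were picked for their unequal counts, and the differences among the 19 chromosomes were not tested.

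**Figure D5:**
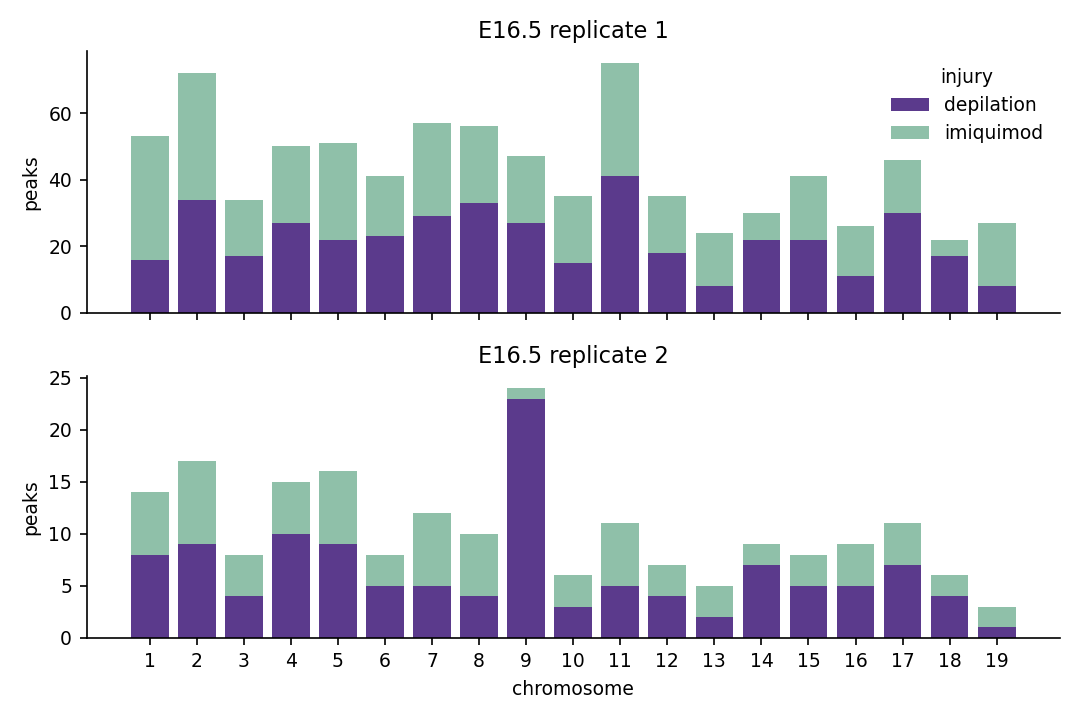
Number of members (y axis, peaks) on each autosome (x axis), stacked by the injury that holds them, for E16.5 replicate 1 (above) and replicate 2 (below, on its own scale). Chromosome 9 stands out in replicate 2 with 23 depilation members, 17 of them in a single 1 Mb window, and 1 imiquimod member.

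The window from 3000001 to 4000000 bp on chromosome 9, at the centromeric end of the assembled chromosome, held 17 members, all of replicate 2 and all with depilation. They lay between 2999984 and 3036620 bp, and 2 of them met the same depilation peak. Counted by peak centres, the window held 43 depilation peaks, 19 replicate 2 peaks, 12 imiquimod peaks and 1 replicate 1 peak. The scores of the 17 ran from 50.34 to 232.87 (median 66.45), like those of the other 103 depilation members of replicate 2 (median 68.0). Their depilation peaks scored from 105.65 to 783.36 (median 304.52), against a median of 62.9 for the other 103. The nearest imiquimod peak was between 308 and 3390 bp away and the nearest replicate 1 peak at least 495664 bp away.

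The edges of these peaks nearly coincided between embryo and depilation. Both edges lay within 10 bp of those of the depilation peak for 14 of the 17, and for 3 of the other 103 depilation members of replicate 2. None of the 420 depilation members and 2 of the 402 imiquimod members of replicate 1 had edges that close, and 3 of the 79 imiquimod members of replicate 2 did. The peak at chr9:3035670-3036142 (score 113.63), for example, met a depilation peak at 3035672 to 3036142 (724.62). The peak at chr9:3022061-3022266 (91.08) met one at 3022063 to 3022264 (432.0). Signal of the input libraries at this place was not analysed here, and its part in these peaks was not tested. Without the window replicate 2 kept 182 members, or 3.29% of its single-replicate peaks, and the share on chromosome 9 was 2.41% in place of 7.77%.

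The next densest windows held 6 members each. On chromosome 10, from 79000001 to 80000000 bp, there were 5 members of replicate 1 and 1 of replicate 2, of which 5 were met by imiquimod and 1 by depilation. On chromosome 11, from 97000001 to 98000000 bp, all 6 came from replicate 1, with 4 met by depilation and 2 by imiquimod. The whole replicate 1 list had 44 peaks in the first of these windows and 28 in the second.

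The members ranked best were those with the highest mean of their embryonic and adult percentiles, at most 1 for each 1 Mb window. Genes near them, and their sequences, were not analysed here. Among replicate 1 members met by depilation the first was chr2:77654367-77655270, which scored 210.81 in replicate 1 and 198.43 after depilation. The peak at chr1:157091171-157091997 scored 251.3 and 138.84. The peaks at chr15:85863305-85864487 and chr19:53403871-53404654 scored 203.36 and 200.95 in replicate 1, and 187.35 and 163.12 after depilation. All 4 stood at percentile 96.4 or above in both lists. The nearest replicate 2 peak lay between 24373 and 128647 bp away.

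Among replicate 1 members met by imiquimod, chr6:120443011-120444103 scored 259.42 in replicate 1 and 193.48 after imiquimod, with 69 tags at a fold enrichment of 7.94. The peak at chr2:28061063-28062003 scored 254.6 and 192.31, and its fold of 10.92 was the highest of the 4. The peaks at chr13:56804251-56804864 and chr1:9957125-9957689 scored 196.03 and 202.35 in replicate 1, and 232.83 and 216.18 after imiquimod. The last had a depilation peak 513 bp away, whereas the other 3 had none nearer than 29583 bp. The nearest replicate 2 peak lay between 12066 and 47048 bp away.

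Among replicate 2 members met by depilation, the top 2 lay at places where depilation scores were far above the embryonic ones. These were chr9:3025298-3025694, in the window above, with 232.87 in replicate 2 and 783.36 after depilation, and chr2:98505023-98505422, with 117.24 and 609.59. The latter had a replicate 1 peak 928 bp away and an imiquimod peak 696 bp away. Its depilation peak, at 98505011 to 98505419, had edges near its own, as in the chromosome 9 window. Signal of the input libraries was not analysed at this place either. The peak at chr16:91534796-91535107 had the highest replicate 2 score of any member, 323.8, and a depilation score of 93.19. The peak at chr10:80387351-80387467, of 117 bp, scored 158.08 and 85.63.

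Among replicate 2 members met by imiquimod, the first was chr5:35622044-35622487, with 110.14 in replicate 2 and 147.99 after imiquimod, and a replicate 1 peak 738 bp away. The peaks at chr12:57635699-57635939 and chr17:56567311-56567562 scored 101.07 and 100.95, and 157.24 and 130.08 after imiquimod. The fourth, chr5:111308604-111309195, scored 92.25 and 130.24. Their imiquimod peaks held 48 to 61 tags at fold enrichments from 6.65 to 7.79, near the list's median fold of 6.65.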

How the data were processed

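Grhl3 was mapped by ChIP-seq with a custom antibody from 28 µg of chromatin and sequenced single-end for 50 cycles, per the labels' protocols. Bowtie 0.12.7, bedtools 2.11.2 and build mm9 are listed in the submitters' processing notes. Peak names in 3 lists begin with MACS. The sources used here do not give the caller's version, settings or use of the input, and peaks were deposited as 1 list for each library. Each deposited list gives a score for every peak, at least 50 in all of them, whose scale no header states. In the imiquimod list the header of that column is lost, and it was read as the same kind of score. Per the file headers, the imiquimod list also gives the count of tags in each peak, the fold enrichment and the false discovery rate in percent. Without read totals, which were not used here, sequencing depth is unknown, and a missing peak cannot be told from one under the caller's threshold.

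BED starts were raised by 1, and positions are 1-based. Overlaps of at least 1 bp were counted with Python 3.11.15, numpy 2.4.6 and pandas 2.3.3, and bedtools 2.31.1 gave the same 4 counts of members. Binomial intervals are exact (Clopper-Pearson, 95%, scipy 1.17.1) and treat peaks as independent, which neighbouring peaks are not. Peaks in neither injury were weighted to the members' counts over 10 score classes, with no random draw. The procedure was tested on simulated peaks. No hypothesis test was run, because the rule uses the overlaps and each injury has 1 library. Named members are the 4 of each class with the highest mean score percentile, at most 1 for each 1 Mb, together with the 3 windows of 1 Mb that hold most members and the peaks nearest the edge of the rule. The members and lists were chosen with earlier results of these data known. Chromosomes X and Y were left out of the members. Alternatives changed the overlap rule, the score threshold, the chromosomes, dense windows, the adult list length and the matching.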

Additional observations from a re-analysis of the deposited data

Results flagged for a closer look

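Chromosomes X and Y lie outside the comparison, and peaks that would meet the rule were found there. In replicate 1, 11 of 117 single-replicate peaks on these chromosomes were found in exactly one injury, 7 in depilation and 4 in imiquimod, all on X. In replicate 2 this held for 6 of 103, all in depilation, with 5 on X and 1 on Y. The imiquimod list holds 25 peaks on X and 0 on Y, and the depilation list 57 and 14.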

How the results depend on the processing

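Over 12 alternative settings and 62 recomputed values, 50 stayed within 1.5 times (counts), the binomial interval (shares) or 1 SD of the 2 width ratios, 0.196. The 12 others follow. Without replicate 2 as a filter, 2102 replicate 1 peaks met the rule. Without replicate 1 as a filter, 1556 replicate 2 peaks did, their depilation share was 51.03% and their width ratio 1.83. Replicate 2 had 326 members when peaks counted as shared by centres within 250 bp, and 381 when every peak was replaced by the 200 bp around its centre. With the better scoring 50% of each list the depilation shares were 44.35% and 52.73%, and the replicate 2 width ratio was 1.894. With the imiquimod list shortened to the length of the depilation list the shares were 58.91% and 68.42%. Without matching by score the replicate 1 width ratio was 1.992. The cause was not tested. Leaving out the densest window, an alternative chosen after seeing the data, gave 182 replicate 2 members, a depilation share of 56.59% and a width ratio of 1.60. That setting could not move the replicate 1 values, which are among the 50, because the window held no single-replicate peak of replicate 1. Width ratios stayed above 1 in all settings for which they were computed. They were not computed with every peak replaced by the 200 bp around its centre. In the settings that count overlap, a wide peak meets the rule more easily, which favours a ratio above 1 in advance. No paired analysis was possible because only E16.5 has a second replicate. An adult library could not be left out, since the rule needs both.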

Other observations

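The single-replicate peaks found in both injuries, which the rule leaves out, were wider than the members by their medians, and in replicate 1 they scored higher. There the 354 such peaks had a median score of 105.3 (quartiles 77.6 and 143.0) against 89.22 (67.1 and 125.5) for members. In replicate 2 the scores differed little. The 40 such peaks had a median of 68.41 (54.8 and 91.5) against 66.45 (55.6 and 85.4) for members. Of all single-replicate peaks met by any injury, the members made up 69.9% (67.2 to 72.5) in replicate 1 and 83.3% (77.9 to 87.8) in replicate 2. Among recurring peaks met by any injury, the share found in exactly one was 63.1% (61.0 to 65.2) and 65.8% (63.7 to 67.9).

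By their medians, members as a whole also lay closer to other peaks of their own replicate than score-matched peaks in neither injury did. The median gap was 36488.5 bp against 43791.4 bp in replicate 1. In replicate 2 it was 45850 bp against 71585 bp, and the members' median was 56263 bp without the densest window. By injury, the replicate 1 medians were 37455.5 bp for depilation and 34587 bp for imiquimod members. In replicate 2 the median was 35437 bp for depilation members, or 49054 bp without the densest window. For imiquimod members of replicate 2 it was 69022 bp, close to the matched value. None of these differences was tested.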
